A study of Homo sapiens with 22 samples.

Results

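The HOX genes were followed while human fibroblasts were reprogrammed to pluripotency. All 39 genes of the HOXA, HOXB, HOXC and HOXD clusters were taken, of 33694 genes in the deposited tables, as those whose symbol is HOX, a cluster letter and a paralog number. The cells were BJ fibroblasts, an established line from human newborn foreskin, grown in microfluidic chips and reprogrammed by nightly transfection of mRNAs for POU5F1, SOX2, KLF4, MYC, LIN28 and NANOG from day 1 to day 8. D0 cells were harvested before any transfection and were labelled as controls, while all later cells, those of D3, D5, D7, D9, D11, D13 and D15, had been transfected. Per the paper, the line was cultured in DMEM with serum and moved to reprogramming medium from day 1. D0 thus differs from all later days in medium as well as in transfection. The paper ran reprogramming in a hypoxia incubator and names none for culture of the line, so oxygen may differ too. These cannot be told apart. The culture medium changed again on day 9, from Pluriton to StemMACS iPSBrew. After D9 the end of transfection, the new medium and time therefore cannot be told apart. Each day was sampled as pools A and B, each of which joined cells from 4 chips, so the spread between them is that of pools of chips of 1 line. RNA was counted per cell with 10x 3' tags, giving 22 libraries of 16 pools.

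HOX genes encode homeodomain transcription factors that are arranged along each chromosome in the order in which they are used along the body axis. Low paralog numbers belong to anterior positions and high numbers to posterior and distal ones, and fibroblasts grown from adult or newborn skin keep the HOX set of the site they came from. Pluripotent cells keep the clusters largely silent, with Polycomb proteins on their chromatin, and HOX genes are first switched on in order from the anterior end when such cells differentiate. On GRCh38 the HOXB cluster spans chr17:48528526-48728750, HOXC chr12:53938831-54056030 and HOXD chr2:176092721-176190907.

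In all, 41975 of 44197 barcodes had at least 1000 detected genes and at most 10% mitochondrial UMIs and were kept, with 571 to 6142 cells and 33181614 to 180056814 UMIs per pool and a median of 23717 to 80168 UMIs per cell. The 39 HOX genes took 581 to 38242 of these UMIs in a pool. Of 42998 distinct barcode sequences, 1185 occurred in more than 1 library and 4 in both aliquots of 1 pool. In the 6 pools sequenced from 2 frozen aliquots, the summed HOX level of the aliquots differed by 1.01 to 1.33 times. Levels are given as counts per 1000000 UMIs of the pool (CPM). These tags are counted near the 3' end of a transcript, so CPM is not divided by length. The labelled fibroblasts carried the fibroblast markers at 10903 and 10746 CPM on D0 (10 genes summed) and the pluripotency markers at 4.26 and 4.16 CPM (8 genes summed). Summed keratinocyte markers stayed at or under 0.964 CPM and neural markers at or under 4.93 CPM in the 16 pools. Endothelial markers ran from 0.219 to 29.2 CPM, and of the immune markers PTPRC and CD68 summed to 89.1 and 87.9 CPM on D0 and 0.964 and 1.48 CPM on D15; their part in the HOX levels was not tested.

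The fibroblasts began with a posterior, HOXA-rich set. On D0 the 39 genes summed to 230 CPM in pool A and 237 CPM in pool B, and HOXA genes made up 77.8% and 77.0% of that sum. HOXC genes gave 15.5% and 16.1%, HOXD genes 3.51% and 3.56%, and HOXB genes 3.24% and 3.36%. By position, the posterior paralogs 9 to 13 held 85.8% and 85.6%, the central paralogs 4 to 8 held 11.3% and 11.4%, and the anterior paralogs 1 to 3 held 2.96% and 2.96%. The neighbours HOXA9, HOXA10 and HOXA11 alone carried 63.8% and 62.7% of the HOX RNA counted. Of the 39 genes, 12 reached a mean of 5 CPM on at least 1 day, 13 peaked between 1 and 5 CPM, and 14 stayed below 1 CPM on every day.

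The summed level then fell, slowly at first. At D0 it was 233 ± 5.45 CPM (mean ± SD, n = 2 pools here and for the other days). It was 189 ± 27.5 CPM at D3, 203 ± 13.4 at D5, 167 ± 16.8 at D7 and 138 ± 4.83 at D9. It then went to 92.6 ± 4.37 CPM at D11, 61.6 ± 26.3 at D13 and 18.0 ± 0.700 at D15. The D15 mean was thus 7.71% of that on D0, and the day values did not overlap between D0, D9, D11 and D15. The D13 pools stood apart from each other, with 80.2 CPM in pool A and 43.0 CPM in pool B. In a sum over a pool, fewer cells holding HOX RNA and less HOX RNA per cell cannot be told apart. The summed fibroblast markers also ended low but took another path, at 45.1% at D3, 58.0% at D5, 42.9% at D7, 18.0% at D9, 29.5% at D11, 21.2% at D13 and 7.24% at D15 of their D0 level. The HOX sum stood at 81.0%, 87.1%, 71.8%, 59.0%, 39.7%, 26.4% and 7.71% of its D0 level on the same days, so from D9 to D11 the markers went up while the HOX sum went down.

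**Figure D1:**
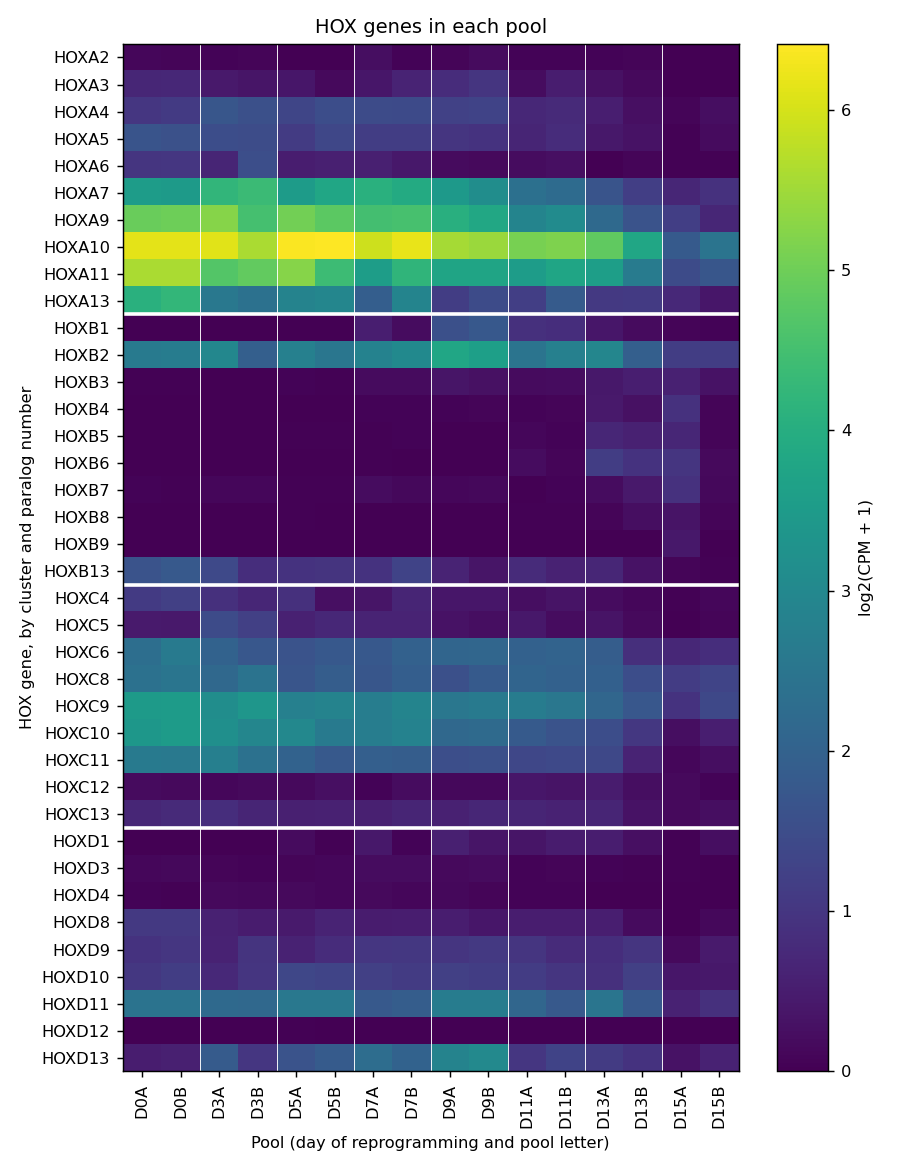
Level of 38 HOX genes (rows, by cluster and paralog number; white lines part the clusters) in each of the 16 pools (columns), as the log2 of CPM plus 1. HOXA9, HOXA10 and HOXA11 are the brightest rows from D0 to D5, HOXB1, HOXB2 and HOXD13 are brightest on D9, and HOXB4 to HOXB9 stay at or under 0.154 CPM until D9 and are brightest on D13 or D15.

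The share of cells with a HOX UMI is set largely by the mean level at a fixed depth, and it is given as a second view of the same level. With every cell thinned to 5000 UMIs, which left out no cell, 67.9% ± 1.11 of cells held at least 1 HOX UMI on D0, 43.5% ± 0.696 on D9, 20.2% ± 4.47 on D13 and 7.18% ± 1.24 on D15 (mean ± SD, n = 2 pools). The number of different HOX genes seen per thinned cell was 1.08 ± 0.0266 on D0, 0.624 ± 0.00644 on D9 and 0.0969 ± 0.0132 on D15. Without thinning, the shares were 98.1% and 98.2% on D0 against 21.5% and 22.4% on D15. As a background, cells of D15 that carried pluripotency markers, a kind in which the clusters are normally silent, held a HOX UMI in 1.97% and 2.76% of thinned cells, at median depths of 58155 and 31026 UMIs before thinning, against 23717 and 28376 UMIs on D0.

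The comparison of D15 with D0 asks which part of the fibroblast's HOX set was gone at the end. UMIs were summed per pool and tested with edgeR's quasi-likelihood test over the 12794 genes seen in at least 5% of cells, all 16 pools in 1 fit, and a gene was called where its p after Benjamini-Hochberg adjustment was under 0.01 and its fold change exceeded 0.25 on the log2 scale. Only 14 of the 39 HOX genes passed that filter, and a gene could pass through the early days on which it was high, so their count is given as a description. Of these 14, 13 were lower on D15 and none was higher. HOXD13 was the exception, with no call (log2 fold change -0.25, SE 0.43, adjusted p = 0.63). Over all genes tested, 26.7% were called lower and 26.8% higher. The median log2 fold change was -3.45 over the 14 HOX genes and 0.010 over all genes. With no filter, so that all 39 entered, 25 were lower, 9 higher and 5 not called, where 18.6% and 19.9% of 29281 genes were lower and higher. The 5 without a call were HOXA2, HOXC12, HOXD4, HOXD12 and HOXD13.

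The posterior HOXA genes gave most of the loss. HOXA10 (chr7:27170605-27180261, minus strand), a factor of limb, uterine and blood cell development, was the highest HOX gene of the fibroblasts. From D0, D3, D5, D7, D9, D11, D13 to D15 it stood at 69.4, 68.8, 82.2, 60.1, 46.1, 33.1, 27.7 and 2.53 CPM in pool A, and 70.1, 47.7, 84.2, 72.0, 42.7, 35.3, 13 and 4.49 CPM in pool B. The D5 pools were the highest of all and the D15 pools the lowest, below every earlier pool (log2 fold change -4.35, SE 0.34, adjusted p = 2.3e-07). Its promoter is shown because the gene carries more of the sum than any other. The window of 300 bases is around the gene start given by RefSeq (GRCh38.p14, chr7:27179812-27180111, minus strand). It lies inside the gene span given above and does not hold the gene start of that span, 27180261. The capitals mark a match, on the opposite strand, to the octamer ATGCAAAT that POU factors bind.

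HOXA10: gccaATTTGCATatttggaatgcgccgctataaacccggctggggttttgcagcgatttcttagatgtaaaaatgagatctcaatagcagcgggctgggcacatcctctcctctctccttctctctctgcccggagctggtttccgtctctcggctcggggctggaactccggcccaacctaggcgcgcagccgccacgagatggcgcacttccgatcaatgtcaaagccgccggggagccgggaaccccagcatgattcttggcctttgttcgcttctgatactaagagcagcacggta

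The octamer was searched on both strands of the 20 HOX promoters in the RefSeq table and matched in 1 of them, against 1.80% of 27305 promoters of the same length, and a match is not evidence of binding. The 20 windows held a median of 22.5 CpG dinucleotides, against 14.0 over all promoters, and that of HOXA10 held 21.

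HOXA11 (chr7:27181157-27185232), which patterns the forearm and the uterus, was low earlier than HOXA10. Over the same 8 days it stood at 47.1, 24.8, 37.3, 10.9, 12.4, 10.7, 11 and 1.75 CPM in pool A, and 47.6, 28.4, 20, 17.4, 12.4, 12.7, 5.35 and 2.30 CPM in pool B. All pools from D3 on were below both D0 pools, while HOXA10 on D7 still overlapped its D0 level, and the D15 level was the lowest (log2 fold change -4.60, SE 0.37, adjusted p = 3.4e-07). HOXA9 (chr7:27162438-27175180), a blood stem cell factor and the next paralog, stood at 29.9, 36.8, 32.2, 21.7, 15.4, 6.45, 3.58 and 1.27 CPM in pool A, and 31.1, 21.8, 26.6, 22.3, 13.3, 7.61, 2.13 and 0.617 CPM in pool B. Its D3 pools bracketed the D0 level and its decline ran from D7 on (log2 fold change -5.14, SE 0.35, adjusted p = 8.1e-08). The annotated spans of HOXA9 and HOXA10 overlap, so tags from their shared stretch are of uncertain origin.

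HOXA13 (chr7:27193503-27200091), the most distal HOXA gene and a gene of the digits, genital tubercle and hindgut, was the first to be called lower. Across the 8 days it held 15.7, 4.91, 6.25, 2.75, 1.26, 1.27, 1.08 and 0.663 CPM in pool A, and 17.9, 4.28, 6.72, 6.43, 1.77, 2.61, 1.11 and 0.309 CPM in pool B. Every pool from D3 on was below both D0 pools. It was the only HOX gene called lower on D3 than on D0 (log2 fold change -1.90, SE 0.40, adjusted p = 0.0026), a call lost when any 1 of the 4 pools was left out or when only those 4 were fitted, and it was lower on D15 (log2 fold change -5.26, SE 0.50, adjusted p = 1.5e-06). Its promoter window (chr7:27200042-27200341, minus strand) is shown as the most CpG-rich of the 20, with 44 CpG dinucleotides, and it holds neither motif searched.

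HOXA13: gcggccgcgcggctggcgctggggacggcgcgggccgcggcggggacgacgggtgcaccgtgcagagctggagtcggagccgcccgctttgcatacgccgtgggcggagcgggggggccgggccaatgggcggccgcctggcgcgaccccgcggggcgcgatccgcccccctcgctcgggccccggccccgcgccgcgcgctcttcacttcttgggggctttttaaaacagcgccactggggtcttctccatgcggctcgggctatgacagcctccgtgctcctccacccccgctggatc

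HOXA7 (chr7:27153716-27157936), a central gene used in the trunk, differed in its timing. Its levels were 10.7, 17.6, 10.4, 15.9, 9.86, 4.14, 2.18 and 0.603 CPM in pool A, and 10.3, 19.6, 12.9, 14.1, 7.85, 3.73, 1.28 and 0.879 CPM in pool B. Both D3 pools were above both D0 pools, without a call (log2 fold change 0.79, SE 0.25, adjusted p = 0.023), and the D15 level was lower (log2 fold change -3.86, SE 0.29, adjusted p = 2.0e-07). Of the remaining central and anterior HOXA genes, HOXA4 peaked on D3 at 2.13 CPM, HOXA5 on D0 at 2.08 CPM and HOXA6 on D3 at 1.25 CPM. HOXA2 never exceeded 0.189 CPM in a pool, and HOXA3 peaked on D9 at 0.878 CPM. HOXA3 spans several of its neighbours in the annotation.

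**Figure D2:**
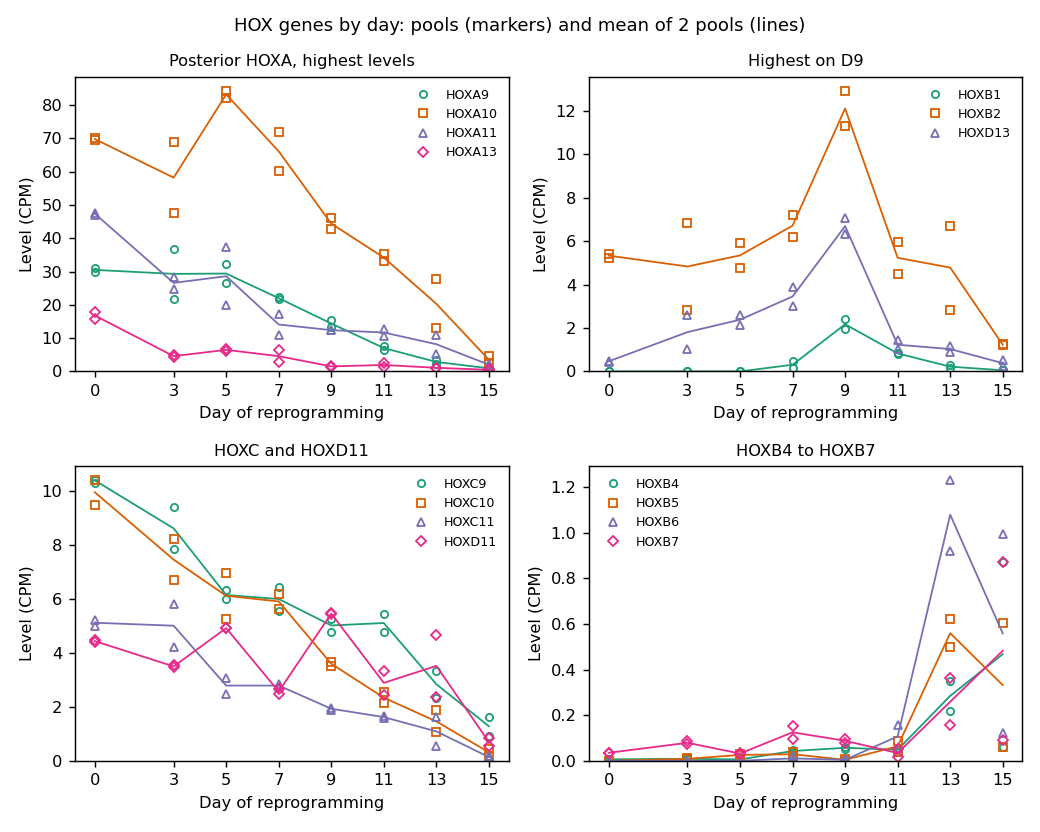
Level in CPM (linear axes from 0, which differ between panels) against day of reprogramming for 4 groups of HOX genes. Markers are single pools and lines join the means of 2 pools. HOXA10 is highest on D5 and HOXA13 is low from D3, HOXB1, HOXB2 and HOXD13 are highest on D9, and HOXC9, HOXC10 and HOXC11 are lower at the end than at the start. HOXB4 to HOXB7 have their highest means on D13 or D15, and pool A of D15 lies far above pool B.

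The 5 HOXC genes that were tested were lower on D15 than on D0. HOXC9 (chr12:53994895-54003337), a thoracic paralog of HOXA9, stood at 10.3, 7.85, 5.99, 5.54, 4.78, 5.43, 3.34 and 0.934 CPM in pool A, and 10.4, 9.40, 6.32, 6.46, 5.26, 4.79, 2.33 and 1.64 CPM in pool B. The D15 pools were the lowest (log2 fold change -3.04, SE 0.27, adjusted p = 8.6e-07). HOXC10 (chr12:53985065-53990279), a lumbar and hindlimb gene, stood at 9.48, 8.22, 6.96, 5.62, 3.52, 2.54, 1.87 and 0.181 CPM in pool A, and 10.4, 6.70, 5.27, 6.19, 3.68, 2.14, 1.06 and 0.447 CPM in pool B. Both its D9 pools were below every earlier pool and its D15 pools were lower again (log2 fold change -4.93, SE 0.35, adjusted p = 1.1e-07). HOXC11 (chr12:53973126-53977643) stood at 5.24, 5.81, 3.08, 2.86, 1.89, 1.58, 1.62 and 0.0904 CPM in pool A, and 5.01, 4.21, 2.49, 2.73, 1.97, 1.66, 0.557 and 0.185 CPM in pool B and ended lower (log2 fold change -5.15, SE 0.45, adjusted p = 7.1e-07). HOXC6 and HOXC8, with D0 means of 4.60 and 4.46 CPM, ended at 0.710 and 1.34 CPM, and both were called lower. Neither went down evenly, as HOXC6 stood at 2.26 CPM on D5 and 3.28 on D9, and HOXC8 at 2.24 on D9 and 3.09 on D11. HOXC5 was highest on D3, with 1.78 and 1.34 CPM against 0.390 and 0.360 CPM on D0. HOXC4, HOXC12 and HOXC13 stayed at or under 1.31 CPM in every pool, and HOXC12 was highest on D13, with a mean of 0.295 CPM against 0.130 on D0.

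In the HOXD cluster 2 genes passed 5 CPM. HOXD11 (chr2:176104216-176109754), which acts with HOXA11 in the forearm, stood at 4.42, 3.55, 4.91, 2.46, 5.47, 3.33, 4.65 and 0.542 CPM in pool A, and 4.47, 3.46, 4.93, 2.68, 5.46, 2.44, 2.38 and 0.849 CPM in pool B. It was highest on D9, dipped on D7 and was lower on D15 than on D0 (log2 fold change -2.70, SE 0.31, adjusted p = 7.3e-06). HOXD13 is described with the genes that peaked on D9. HOXD8, HOXD9 and HOXD10 had D0 means of 1.09, 0.966 and 1.16 CPM and D15 means of 0.0540, 0.245 and 0.320 CPM. HOXD3 and HOXD4 stayed at or under 0.168 CPM in every pool. HOXD12 gave 3 UMIs in the 16 pools together.

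Calls in the early steps were few, and with the power given by 2 pools the lack of a call does not show that a gene did not change. Against D0, D3 had 1 lower HOX gene, HOXA13, and 1 higher, HOXD13, among the 14 tested, where 12.6% of all genes were lower and 13.1% higher. Between D3 and D7 none was called, where 1.45% and 6.48% of all genes were lower and higher. At an unadjusted p below 0.05 there were 5 of the 14, against 22.5% of all genes, and DESeq2 called none, against 12.1%. Between D7 and D9 none was called either, where the shares over all genes were 2.78% and 4.59%. At an unadjusted p below 0.05 there were 8 of the 14, against 26.9% of all genes, and DESeq2 called 2, against 12.9%. From D9 to D15, by contrast, 12 of the 14 were called lower and none higher, where 10.2% and 10.8% of all genes were lower and higher. The 2 without a call in this step were HOXA13 (log2 fold change -1.66, SE 0.48, adjusted p = 0.017) and HOXC8 (log2 fold change -0.67, SE 0.26, adjusted p = 0.059). Leaving out either D0 pool or pool A of D3 left 0 calls, and leaving out pool B of D3 left 1. The log2 fold change of HOXA13 nevertheless stayed between -1.97 and -1.83 in these fits, while that of HOXD13 ran from 1.18 without pool A of D3 to 2.38 without pool B. Fitted on the 4 pools of D0 and D3 alone, edgeR called 0 genes of 12794 and 5431 at an unadjusted p below 0.05.

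Of the 39 genes, 8 had their highest mean on D9, among them HOXA3, HOXB1, HOXB2, HOXD1, HOXD9, HOXD11 and HOXD13. HOXD11, described above, went from D7 to D9 without a call (log2 fold change 1.05, SE 0.27, adjusted p = 0.022). HOXB2 (chr17:48540894-48545109), a hindbrain gene, held 5.24, 6.83, 5.92, 6.21, 12.9, 4.49, 6.71 and 1.24 CPM in pool A, and 5.42, 2.84, 4.76, 7.22, 11.3, 5.97, 2.84 and 1.23 CPM in pool B. Its D9 pools were above all others, but the adjusted p missed the threshold against D7 (log2 fold change 0.81, SE 0.36, adjusted p = 0.16), and it was lower on D15 than on D9 (log2 fold change -3.23, SE 0.40, adjusted p = 9.5e-05). HOXD13 (chr2:176092721-176095944), the last gene of the cluster and one of digits and genitalia, held 0.438, 2.58, 2.14, 3.89, 6.32, 1.02, 1.15 and 0.241 CPM in pool A, and 0.489, 1.03, 2.61, 3.02, 7.05, 1.45, 0.913 and 0.525 CPM in pool B. It was higher on D3 than on D0 (log2 fold change 1.89, SE 0.38, adjusted p = 0.0020), highest on D9, and lower on D15 than on D9 (log2 fold change -3.97, SE 0.43, adjusted p = 3.7e-05).

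HOXB1 (chr17:48528526-48531011), a retinoic acid target that sets identity in a hindbrain segment, had no UMI on D0, D3 or D5. It then stood at 0.462 and 0.154 CPM on D7, 1.94 and 2.40 on D9, 0.866 and 0.794 on D11, 0.298 and 0.142 on D13 and 0.0603 and 0.0463 on D15, in pools A and B, and the D15 values rest on 2 and 3 UMIs. Against the 3 counts over both D0 pools that a count of 0 allows (0.00956 CPM), the D9 mean was at least 227-fold higher. The gene was below the 5% filter, and with no filter it was the 1 HOX gene called higher on D9 than on D7, where 4.28% of all genes were, beside HOXA13, which was called lower where 2.23% were. HOXD1, of the same paralog number, had 0 UMIs on D0 and D3 and means of 0.376 CPM on D9 and 0.0999 CPM on D15. In the promoter window of HOXB1 (chr17:48530962-48531261, minus strand), shown as that of the gene that went from none to counted, the capitals mark TGATNNAT, the joint site of PBX and HOX proteins, here read on the gene's own strand.

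HOXB1: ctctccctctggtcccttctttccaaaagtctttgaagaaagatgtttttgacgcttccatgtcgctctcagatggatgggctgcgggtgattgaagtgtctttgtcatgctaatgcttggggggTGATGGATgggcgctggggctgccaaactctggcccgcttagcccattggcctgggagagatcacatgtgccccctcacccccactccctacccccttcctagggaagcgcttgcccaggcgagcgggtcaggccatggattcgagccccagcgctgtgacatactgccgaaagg

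That motif, searched on both strands, matched in 3 of the 20 HOX promoters (HOXA2, HOXB1 and HOXD11) and in 7.60% of all promoters of this length, and the HOXB1 window held 11 CpG dinucleotides. By position, the anterior genes held 2.96% of the HOX sum on D0 and 15.3% on D9, with SDs of 0.00319 and 0.325 percentage points over 2 pools, and their own level went from 6.90 ± 0.154 to 21.1 ± 1.18 CPM. On D15 it was 2.04 ± 0.00901 CPM.

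The third group was the middle of the HOXB cluster, which was barely counted in the fibroblasts. HOXB3 to HOXB9, genes of the neck and trunk that are active in mesoderm and in blood progenitors, summed to 0.0720 and 0.0679 CPM on D0, 0.406 and 0.409 on D9, 0.467 and 0.391 on D11, 2.75 and 2.65 on D13 and 4.46 and 0.663 on D15. Both D13 pools and pool A of D15 stood high, and pool B of D15 was close to D11. HOXB6 had 0 UMIs on D0, D3 and D5 and reached 1.23 and 0.919 CPM on D13, at least 112-fold above what a count of 0 in both D0 pools allows. HOXB5 reached 0.622 and 0.498 CPM on D13, at least 58.6-fold above the same floor. HOXB9 was counted mainly in pool A of D15, where 11 UMIs were found against 1 from pool B. With no filter on genes, all 7 were among the 9 HOX genes called higher on D15 than on D0, together with HOXB1 and HOXD1. Over all 29281 genes, 19.9% were called higher in that comparison. Each of the 9 had at most 33 UMIs in a D15 pool. On D15 only 1 UMI of HOXD1 came from pool A, against 11 from pool B. Against D9, HOXB4, HOXB5, HOXB6 and HOXB8 were called higher with no filter and 26 HOX genes lower, where 8.66% and 10.9% of all genes were. HOXB13, the distal gene that stands apart from the rest of the cluster, followed the fibroblast genes and went from 2.13 and 2.49 CPM on D0 to 0.0603 and 0.0309 on D15.

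A large part of the late HOXB RNA lay in few cells, in shares that differed between pools. Of 14332 cells from D11 to D15, 91 had at least 3 UMIs of HOXB3 to HOXB9, and they held 590 of 958 such UMIs (61.6%). By pool these were 4 cells of D11 pool A, 5 cells of D11 pool B, 17 cells of D13 pool A, 45 cells of D13 pool B, 16 cells of D15 pool A and 4 cells of D15 pool B. They held 42 of the 84 such UMIs of D11 pool A, and a share of 42.6% in D11 pool B, 84.9% in D13 pool A, 51.0% in D13 pool B, 81.1% in D15 pool A and 30.2% in D15 pool B, so in 2 of the 6 pools most of these UMIs lay outside them. In these cells, chosen by their HOXB counts, HAND1 stood at 461 CPM against 6.18 in the other cells of those days, HAPLN1 at 962 against 49.3, TMEM88 at 463 against 18.0 and BAMBI at 623 against 61.4. POU5F1 stood at 169 against 938 CPM, and most of the listed fibroblast genes were also lower. COL1A1 stood at 496 against 950 CPM and DCN at 2.46 against 25. Of the listed fibroblast genes only LUM, at 267 against 136, and COL3A1, at 196 against 119, were higher. HAND1 is a factor of lateral and extra-embryonic mesoderm. CDX2 stood at 4.26 against 0.135 CPM, CDH5 stood at 4.03 against 0.0801 CPM and PECAM1 stood at 4.93 against 0.333 CPM, where CDH5 and PECAM1 are endothelial genes and all 3 were low in both sets of cells. Of 7 listed mesendoderm markers, 5 were higher in these cells, while CER1 stood at 81.8 against 94.7 CPM and GSC stood at 2.46 against 5.33 CPM. These genes and this gate were chosen after the values were seen, and no test was made. Cells with at least 100 CPM and 3 UMIs of mesendoderm markers (CER1, EOMES, GSC, MIXL1, SOX17, GATA6 and FOXA2) held HOXB3 to HOXB9 at 2.35 CPM against 0.197 in the other cells of D11 pool A, 3.19 CPM against 0.153 in the other cells of D11 pool B, 15.3 CPM against 1.77 in the other cells of D13 pool A, 8.91 CPM against 1.93 in the other cells of D13 pool B, 17.9 CPM against 3.67 in the other cells of D15 pool A and 3.21 CPM against 0.437 in the other cells of D15 pool B. The level was higher in the mesendoderm-marker cells of 6 of 6 pools.

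Within the late pools the cells were parted by markers that hold no HOX gene. A cell counted as a somatic-marker cell where its summed fibroblast marker UMIs were at least 2 times its pluripotency marker UMIs (1 added to each), and as a pluripotent-marker cell where the reverse held. One of the pluripotency markers, POU5F1, is also among the delivered mRNAs. Both D0 pools were wholly of the first class. From D9 to D15 the pluripotent-marker class took 44.4%, 51.4%, 45.1%, 54.0%, 63.5%, 71.8%, 88.8% and 85.9% of cells in D9 A, D9 B and so on to D15 B. The somatic-marker class took 42.3%, 32.4%, 43.8%, 41.4%, 32.7%, 19.2%, 9.81% and 11.5%, from 56 cells in pool A of D15 to 1360 in pool B of D11. The 1460 cells between the limits, 8.24% of the cells from D9 on, were left out, and in all 5081 of 41975 cells lay within 1 log2 unit of a limit. The 2 pools of D13, which differed in summed HOX level, also differed in somatic-marker cells, with 32.7% and 19.2%.

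The higher HOX level lay in the somatic-marker cells. In these the 39 genes summed to 220 and 235 CPM on D9, 185 and 236 CPM on D11, 271 and 177 CPM on D13 and 138 and 137 CPM on D15, against 230 and 237 CPM on D0. In the pluripotent-marker cells of the same pools they summed to 79.9 and 74.0 CPM on D9, 28.3 and 22.1 CPM on D11, 10.2 and 11.7 CPM on D13 and 3.58 and 5.48 CPM on D15. The somatic-marker cells were thus 2.75 and 3.17 times higher on D9 and 38.6 and 25.1 times higher on D15, in 8 of 8 pools. The lowest of the pluripotent-marker values rests on 108 HOX UMIs in pool A of D15. Fibroblast markers were also counted in the pluripotent-marker cells, at 267 and 303 CPM on D9 and 125 and 197 CPM on D15, against 5241, 5531, 7448 and 7850 CPM in the somatic-marker cells. As a share of the somatic-marker level of the same pool, the pluripotent-marker cells held 36.3% and 31.5% of the HOX sum on D9 beside 5.09% and 5.48% of the fibroblast markers. On D15 the shares were 2.59% and 4% of the HOX sum beside 1.68% and 2.51% of the markers. In thinned cells the share with a HOX UMI was 59.0% ± 1.63 in somatic-marker and 28.9% ± 1.92 in pluripotent-marker cells on D9, and 42.2% ± 1.64 and 2.37% ± 0.559 on D15 (SD, n = 2 pools).

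**Figure D3:**
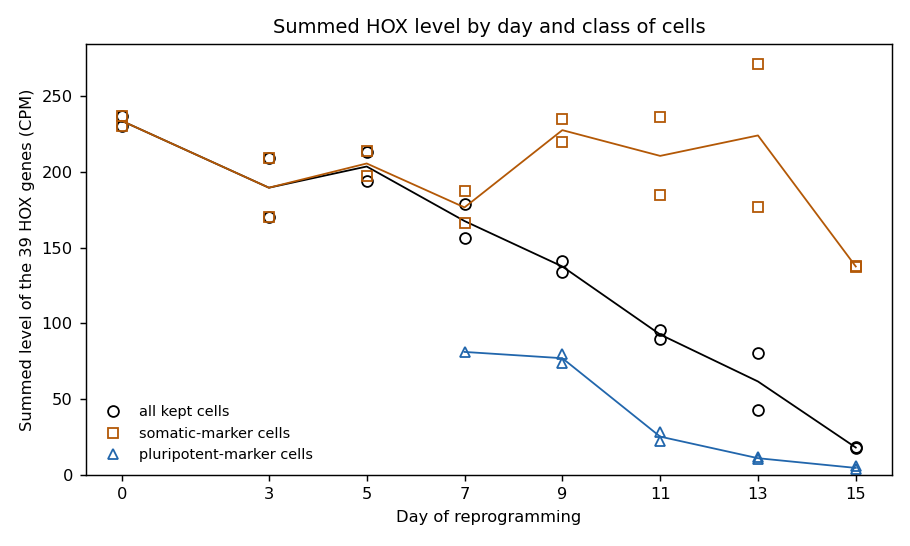
Summed level of the 39 HOX genes in CPM (linear axis from 0) against day of reprogramming. Each marker is 1 pool and lines join day means, for all kept cells (black circles), somatic-marker cells (brown squares) and pluripotent-marker cells (blue triangles, pools with at least 50 such cells). The black line falls from 233 CPM on D0 to 18.0 on D15, while the brown squares stay at or above 137 CPM and the blue triangles end at 3.58 and 5.48 CPM.

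Tested within pools (edgeR's quasi-likelihood test with the pool as a block, 8 pools from D9 to D15), 10 of the 14 HOX genes were lower in pluripotent-marker cells and none was higher, where 34.5% of all genes were lower and 35.1% higher. With no filter, 29 of the 38 HOX genes counted there were lower and 1, HOXB1, was higher, where 20.3% and 23.5% of 28293 genes were. HOXA11 had the largest fall of the 14 (log2 fold change -4.97, SE 0.37, adjusted p = 1.2e-06), followed by HOXA10 (log2 fold change -4.79, SE 0.50, adjusted p = 9.6e-06), HOXA13 (log2 fold change -4.52, SE 0.26, adjusted p = 3.2e-07) and HOXC11 (log2 fold change -4.11, SE 0.45, adjusted p = 1.3e-05). In the somatic-marker cells HOXA10 stood at 92.4 and 100 on D9, 77.5 and 102 on D11, 103 and 66.1 on D13 and 24.7 and 42.3 on D15, in CPM. In the pluripotent-marker cells it stood at 10.6 and 9.40 on D9, 6.38 and 1.88 on D11, 0.930 and 2.43 on D13 and 0.0995 and 0.568 on D15. The classes did not overlap for this gene on any day. The pool block takes up differences between days. The fit had no term for class differences that change between days, so its spread also holds these. Among the 4 genes without a call were HOXB2 (log2 fold change -2.05, SE 0.64, adjusted p = 0.013), HOXC6 (log2 fold change -1.79, SE 0.55, adjusted p = 0.012) and HOXD13 (log2 fold change 0.07, SE 0.39, adjusted p = 0.88).

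Of these, HOXB2 and HOXD13 had peaked on D9, and on that day their higher class was the other one. HOXB2 stood at 16.3 and 13.7 on D9 and 0.398 and 0.706 on D15 in pluripotent-marker cells and at 9.64 and 8.40 on D9 and 10.4 and 5.45 on D15 in somatic-marker cells, in CPM. HOXD13 stood at 8.40 and 8.42 on D9 and 0.199 and 0.448 on D15 against 2.94 and 3.86 on D9 and 0.385 and 0.545 on D15. For both genes, pluripotent-marker cells were above somatic-marker cells in both D9 pools and below them in both D15 pools. The D15 levels of the somatic-marker cells rest on few UMIs, 27 and 30 for HOXB2 and 1 and 3 for HOXD13. HOXD11, which was also highest on D9, did not share this, at  and 3.51 and 3.65 on D9 in pluripotent-marker cells against  and 8.10 and 9.05 on D9 in somatic-marker cells. HOXB1 stood at 3.59 and 3.75 on D9 and 0.966 and 0.952 on D11 in pluripotent-marker cells and at 0.199 and 0.588 on D9 and 0.248 and 0.101 on D11 in somatic-marker cells. The posterior HOXA genes showed no such turn, since HOXA9, HOXA10, HOXA11 and HOXA13 were lower in pluripotent-marker cells in 8 of 8 pools each.

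**Figure D4:**
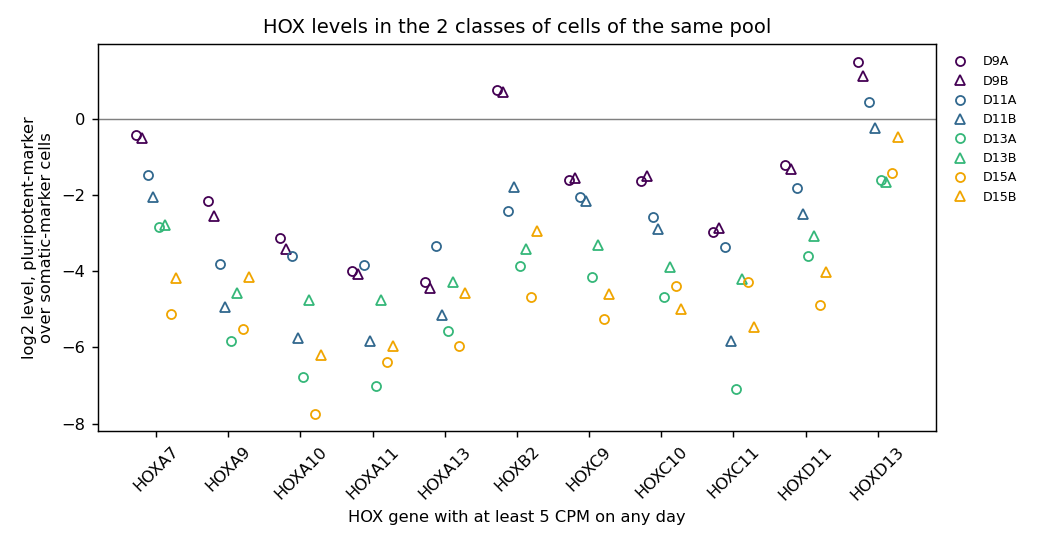
Log2 ratio of the level in pluripotent-marker cells to that in somatic-marker cells of the same pool (vertical axis; 0.5 counts added), for 11 HOX genes with at least 5 CPM on any day. Circles are pools A, triangles pools B, and colours are days. HOXB2 and HOXD13 lie above 0 in both D9 pools and below it in both D15 pools, and HOXA10 runs from -3.12 to -7.74.

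Whether the somatic-marker cells left at the end still carried the starting code was asked by setting them, from D11 to D15 (6 pools), against D0 (2 pools). The 6 late pools formed 1 group with no term for day, so the spread in this test also holds change between days. Among the 14 HOX genes 3 were lower and none higher, where 11.3% of all genes were lower and 13.5% higher. The median log2 fold change was -0.20 over the 14 and 0.035 over all genes. With no filter, 38 HOX genes entered and the balance differed, with 5 lower and 6 higher (HOXB1, HOXB3, HOXB5, HOXB6, HOXC12 and HOXD1) and a median of 0.38, where 8.63% of 26619 genes were lower and 10.5% higher. With the filter, the lower ones were HOXA13 (log2 fold change -2.03, SE 0.32, adjusted p = 6.0e-04), HOXC10 (log2 fold change -1.22, SE 0.29, adjusted p = 0.0061) and HOXA7 (log2 fold change -1.07, SE 0.23, adjusted p = 0.0042). The number of calls depends on the D0 pools, as 1 call was left without pool A of D0 and 0 without pool B, where the lone D0 pool was assumed to vary like the other groups. HOXA10 was not called (log2 fold change -0.12, SE 0.41, adjusted p = 0.85), and it ran from 24.7 CPM in pool A of D15 to 103 in pool A of D13 against 69.4 and 70.1 on D0. HOXA9 fell short of a call (log2 fold change -1.42, SE 0.37, adjusted p = 0.011), with 15.1 and 20.9 on D11, 12.8 and 10.1 on D13 and 8.09 and 4.36 on D15, in CPM, against 29.9 and 31.1 on D0. HOXC8, a trunk gene, stood at 4.70 and 4.76 on D11, 8.95 and 6.33 on D13 and 13.1 and 10.3 on D15 against 4.29 and 4.63 on D0, again without a call (log2 fold change 0.64, SE 0.37, adjusted p = 0.20). HOXB3 to HOXB9 summed to 0.646 and 0.262 on D11, 9.45 and 5.49 on D13 and 23.5 and 3.27 on D15 in these cells and to 0.169 and 0.170 on D11, 0.255 and 0.783 on D13 and 1.26 and 0.241 on D15 in the pluripotent-marker cells. In the cells between the limits, 8 cells in pool A of D15 to 366 in pool B of D13, the sum was 1.46 and 4.55 on D11, 3.89 and 17.0 on D13 and 114 and 8.78 on D15, above that of the somatic-marker cells in 5 of 6 pools, and the mesendoderm markers summed to 504 to 1110 CPM. Of the 91 cells with at least 3 UMIs of these genes, 45 were somatic-marker cells, 40 lay between the limits and 6 were pluripotent-marker cells, and 10 of the 56 somatic-marker cells of pool A of D15 were among them. The mesendoderm markers summed to 15.7 to 71.9 CPM in these somatic-marker cells and to 0.138 and 0.143 CPM on D0. In the pluripotent-marker cells of D11 to D15 they summed to 87.2 to 182 CPM, above the somatic-marker cells of every pool. Between these 2 classes the HOXB3 to HOXB9 sum, lower in the pluripotent-marker cells, thus went the other way from these markers. The cells between the limits had the most of these markers and, in 5 of 6 pools, the highest HOXB3 to HOXB9 sum. How the sum relates to the markers was not tested.

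Genes that work with the HOX genes were read from given lists, whose counts stand beside 26.7% of all genes lower and 26.8% higher on D15 against D0. As for the HOX genes, a gene could pass the filter through the days on which it was high, so these counts are descriptions. Counts with no filter, chosen after the values were seen, are given beside those for D15 against D0, where 18.6% of all genes were lower and 19.9% higher. Of the noncoding RNAs of the HOX clusters, 6 of 16 listed were tested, and 6 were lower on D15 than on D0 and none higher, with a median log2 fold change of -3.91. With no filter 14 entered, and 10 were lower and 3 higher (HAGLR, HAGLROS and HOXB-AS3), where 18.6% and 19.9% of all genes were. The 4 with the largest change were HOXA10-AS (20.4 and 20.1 CPM on D0, 0.723 and 0.401 on D15), HOXA11-AS (24.8 and 25.4 CPM on D0, 1.08 and 1.40 on D15), HOTAIR (7.90 and 7.45 CPM on D0, 0.362 and 0.478 on D15) and HOXD-AS2 (2.02 and 2.29 CPM on D0, 0.181 and 0.185 on D15). HOTAIR is the noncoding RNA of the posterior HOXC cluster. In pluripotent-marker cells, 5 of the 6 were lower, where 34.5% of all genes were. The strand used in counting is not given in the sources used here, so a gene and its antisense partner may share tags.

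The TALE proteins, which bind DNA beside HOX proteins, were divided. Of 8 tested of 9, 3 were lower and 1 higher on D15. They were MEIS1 (24.0 and 26.6 CPM on D0, 1.05 and 0.926 on D15), MEIS2 (37.6 and 37.6 CPM on D0, 7.38 and 6.16 on D15), MEIS3 (21.8 and 24.2 CPM on D0, 11.1 and 11.4 on D15) and, as the higher one, PKNOX1 (11.8 and 12.1 CPM on D0, 18.1 and 22.9 on D15), which was not called with no filter on genes. With no filter 3 of the 9 TALE genes were lower and 1, PKNOX2, was higher. Among the listed Polycomb and related genes, most of whose products help keep HOX clusters silent, 10 were lower and 7 higher of 26. With no filter these counts were 11 and 6. The largest changes were JARID2 (11 and 11.8 CPM on D0, 229 and 215 on D15), PHC1 (4.57 and 5.23 CPM on D0, 82.6 and 82.8 on D15) and MTF2 (15.7 and 16.2 CPM on D0, 122 and 124 on D15), all higher, and CBX8 (5.36 and 5.44 CPM on D0, 0.603 and 0.910 on D15), which was lower. In pluripotent-marker against somatic-marker cells, 11 of the listed Polycomb and related genes were lower and 12 higher, where 34.5% and 35.1% of all genes were. Of the listed Trithorax and related genes, most of whose products help keep HOX genes active, 0 were lower and 6 higher of 10, where 26.8% of all genes were higher. With no filter 0 were lower and 4 higher, where 19.9% of all genes were higher. The largest changes were PSIP1 (121 and 123 CPM on D0, 630 and 544 on D15) and KDM5B (31.9 and 30.2 CPM on D0, 124 and 131 on D15), of which KDM5B is a demethylase that removes an active histone mark.

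Other transcription factors of position and limb also ended low, with calls at earlier steps. Of 21 listed, 16 passed the filter and 16 of these were lower on D15 than on D0, with a median log2 fold change of -4.03. With no filter 17 of 21 were lower and 0 higher. With the filter 15 of the 16 were lower in pluripotent-marker cells, where 34.5% of all genes were. The largest changes were LHX9 (23.3 and 24.0 CPM on D0, 0 and 0.123 on D15), TBX5 (39.4 and 41.4 CPM on D0, 0.181 and 0.309 on D15), TWIST2 (597 and 624 CPM on D0, 5.27 and 6.26 on D15) and TBX18 (8.79 and 10.5 CPM on D0, 0.121 and 0.324 on D15). TBX5 is a gene of forelimb and heart, and TWIST2 one of dermal mesenchyme. In the late somatic-marker cells against D0, 8 of the 16 were lower and 0 higher, where 11.3% and 13.5% of all genes were. With no filter 11 of 21 were lower and 2, LHX2 and SIX2, were higher, where 8.63% and 10.5% were. From D0 to D3 the counts with the filter were 6 and 1, where 12.6% and 13.1% of all genes were called. The median log2 fold change of the 16 was -0.86, against -0.25 over the 14 HOX genes. With no filter the counts were 4 and 2, where 15.0% of all genes were called in either direction. From D7 to D9 the counts with the filter were 7 and 0, where 2.78% and 4.59% of all genes were called. The median was -1.26, and none of the 14 HOX genes was called in that step. With no filter the counts were 8 and 0, where 2.23% and 4.28% of all genes were called. Of the 8 ParaHox and flanking genes, 1 passed the filter, CDX1, a gene of the hindgut, which was not called on D15 against D0. It was lower on D15 than on D9 (log2 fold change -3.91), where 10.2% of all genes were. With no filter 7 entered, and 0 were lower and 3 higher on D15 than on D0 (CDX2, CDX4 and EVX1), where 18.6% and 19.9% of all genes were.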

How the data were processed

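Single-cell RNA was counted in 22 libraries of BJ cells, grouped per the labels into 8 days with pools A and B. The authors made the deposited UMI counts per gene and barcode with Cell Ranger 2.2 on hg38 (10x 3' chemistry, with protein coding, linc and antisense genes), without merging aliquots. No doublet caller was run here, and how doublets were treated before deposit was not checked.

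Barcodes under 1000 genes or over 10% mitochondrial UMIs were dropped, and the UMIs of the others were summed per pool. Genes seen in at least 5% of kept cells were tested with edgeR 4.0.16 (TMM, quasi-likelihood test) in R 4.3.3, and SE is the log2 fold change over the root of F. On simulated counts for D15 against D0 (12794 genes), 42 of 50 genes changed 4-fold and 5 of 50 changed 2-fold were called, with 3 false calls. The simulation lowered only 50 genes per fold size, whereas 26.7% and 26.8% of genes were called lower and higher in the data. Its figures thus do not give the power of the real comparison. Pools of chips of 1 line are the replicates, so p-values of the comparisons of days cover the spread between such pools. The fit between classes had the pool as a block, which takes up the day, but no term for class differences that change between days. Its p-values therefore also cover such change. The fit of late somatic-marker cells joined pools of several days with no term for day. Its p-values therefore also cover change between those days. DESeq2 1.42.0 was an alternative. Tables used pandas 2.3.3 and figures matplotlib 3.10.9.

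The HOX genes, the lists and the tests were chosen with earlier results of these data known. HOX genes with a mean of at least 5 CPM on any day were described pool by pool, and lists by counts and the genes of largest change. The values of 1 HOX gene are not reported here, though it is part of the sums and counts. The limits of the marker classes (a 2-fold gap, at least 50 cells per class and pool) were set after the data were seen. Gene positions are from GENCODE 44 and promoters from RefSeq (GRCh38.p14), where 20 of 39 HOX genes had an entry. Several HOX gene models overlap, as in HOXA9 and HOXA10, HOXA3 with HOXA4 to HOXA6, HOXB3 with HOXB4 to HOXB6, HOXC4 with HOXC5 and HOXC6 with HOXC8 and HOXC9, and their counts are less certain. Levels and counts carry counting error beyond the SDs, and the floor of 3 counts covers that error only.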

Additional observations from a re-analysis of the deposited data

Results flagged for a closer look

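Among the HOX genes with a value in both classes, the log2 ratio of pluripotent-marker to somatic-marker cells differed between D9 and D15 for HOXB2 by 4.54 and for HOXD13 by 2.26 (D9 mean minus D15 mean, 2 pools each). These were listed because both D9 pools were above 0 and both D15 pools below 0, and the difference was not tested. In the somatic-marker cells of D15, HOXD13 had 1 and 3 UMIs, so its ratios are imprecise.

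HOXB2 stood at 19.6 CPM in the somatic-marker cells of pool A of D13, farther from the other late somatic-marker pools than Dixon's 95% critical value allows. It was the 1 flag in 24 groups tested, and chance flags about 1 in 20.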

How the results depend on the processing

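For D3 against D0, where 2 HOX genes were called, 5 were called with an adjusted p under 0.05 and no limit on the fold (40.3% of all genes), 4 with DESeq2 (34.1%), 5 of 39 with no filter on genes (15.0%), 0 in a fit of only the pools compared, and 0 to 1 when 1 pool was left out. For D7 against D3 the 0 calls became 5 with no filter (6.98% of all genes) and 0 to 1 without a pool. For D9 against D7 the 0 calls became 3 under the looser p (14.1% of all genes), 2 with DESeq2 (12.9%), 2 with no filter (6.50%) and 0 to 1 without a pool. With no filter, where all 39 genes could enter, the 12 calls of D15 against D9 became 30, the 13 of D15 against D0 became 34, the 10 between classes became 30, and the 3 of late somatic-marker cells, all lower, became 11, of which 5 were lower and 6 higher where 8.63% and 10.5% of all genes were. The last count was 5 under the looser p (38.4% of all genes) and 0 to 4 without a pool. Some of the added calls were of genes that enter only without the filter. Others were of genes among the 14, such as HOXA7 in D3 against D0 and HOXA9 in late somatic-marker cells. The cause was not tested. Leaving out 1 pool of a day leaves 1 pool there, assumed to vary like the other days.

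With the pool letter as a replicate block the HOX calls were 2, 0, 0, 12 and 13 over the 5 comparisons of days, so the block changed none of these counts. Deviations of pool A and B correlated from -0.41 to 0.81 over 28 pairs of days, with a median of -0.027. The letters thus showed no pairing common to all days, but some pairs of days shared a difference, whose origin was not tested. Over 77 values of the described HOX genes and 792 alternatives, 742 kept their direction and side of the threshold, 16 lost the call, 18 gained it and 16 changed sign, of which 0 were called in either fit. With no filter the log2 fold change became 0.07 for HOXA9 and 0.09 for HOXC11 in D3 against D0, and -0.01 for HOXA10 in D7 against D3, where the 14 tested HOX genes moved together by a median of 0.16 and -0.14 in those comparisons. With DESeq2 it became -0.03 for HOXD13 between classes. With 1 pool left out it ran, for D3 against D0, from -0.46 to 0.18 for HOXA9, from -0.88 to 0.27 for HOXB2 and from -0.26 to 0.09 for HOXC11. For D7 against D3 it ran from -0.06 to 0.36 for HOXA10, from -0.78 to 0.42 for HOXA13 and from -0.03 to 1.13 for HOXB2. It ran from -0.52 to 0.16 for HOXA11 in D9 against D7, from -1.01 to 0.13 for HOXD13 in D15 against D0, from -0.20 to 0.38 for HOXD13 between classes, and from -0.30 to 0.04 for HOXA10 in late somatic-marker cells. The summed HOX levels moved by less than 1 SD with all barcodes or a higher gene minimum, whereas the share of cells with a HOX UMI followed the depth, with 36.8% on D0 and 3.82% on D15 at 2000 UMIs per cell and 98.1% and 22% without thinning. Pool A of D15, with 571 cells and 581 HOX UMIs, gave the fewest HOX counts.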
